A study of Homo sapiens with 6 samples.

Results

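The genes described here are 56 human genes that copy DNA or carry a cell into S phase, listed by name for their role; no value entered the rule, but the list was drawn up with earlier results of these data known. The platform annotation pairs 106 of the 54675 probe sets of the array with exactly 1 of these genes, and no gene lacked a probe set (19775 genes have one in all). They were measured in U87-EV tumours, from a human glioblastoma cell line grown under the skin of female BALB/c SCID mice that were 6 to 8 weeks old when implanted (the labels do not explain EV). The control group (3 arrays) came from mice given saline and the bevacizumab group (3 arrays) from mice given 10 mg/kg of that antibody against human VEGFA into the peritoneum at intervals of 3 days. In both groups dosing began at 150 to 200 mm3 and ran until tumours were roughly 15 to 30 mm across. The model is 1 cell line outside the brain in a host without adaptive immunity, and the labels do not say whether each array is a separate mouse, so the p-values describe only how far these arrays scatter, which may be technical. Mouse RNA was not separated from human RNA in the values. Values are the authors' GCRMA values, on a log2 scale, where a difference of 1 is a 2-fold change. A log2 difference is bevacizumab minus control.

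DNA is copied in an order that the genes follow. The origin recognition complex marks start sites, CDC6 and CDT1 load the ring-shaped MCM helicase there (licensing), and CDC7 with DBF4, CDC45 and the GINS proteins switch the helicase on. Polymerases, the sliding clamp PCNA and its loader then copy both strands from nucleotides made by enzymes such as ribonucleotide reductase, and E2F transcription factors drive many of these genes as cells enter S phase. In tumours the set is commonly read as a sign of cycling cells.

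The replication genes were lower after bevacizumab nearly throughout. With 1 probe set per gene (the one with the highest mean), 54 of the 56 had a mean log2 value of at least 4 and were tested. Of these, 40 fell at an adjusted p under 0.05 (limma, Benjamini-Hochberg over 10233 genes), against 9.97% of all tested genes, and none rose, against 9.09% (19.1% of all genes passed in either direction, and 0 members were higher at an unadjusted p under 0.05). The log2 difference was negative for 52 of 54, with a median of -0.74, beside -0.01 over all tested genes. In 46 of the 54 every bevacizumab array lay under every control array, which held for 22.0% of all tested genes. Past the threshold, the fall reached 2-fold or more in 11 of the 54 genes and in 150 of all 10233. Fewer cells in S phase and less RNA per cell cannot be told apart in whole tumours.

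Averaged over the 54 genes, the control arrays lay at 0.00, -0.04 and 0.04 around their own mean and bevacizumab arrays 1, 2 and 3 at -0.62, -0.79 and -0.77. The 3 bevacizumab arrays therefore sat close together, bevacizumab 1 a little nearer the controls. It was the lowest of the treated arrays in 9 genes, bevacizumab 2 in 23 and bevacizumab 3 in 22. Without control 1, 2 or 3 the count of 40 dropped to 21, 21 and 26, while the median log2 difference stayed between -0.68 and -0.82 when any 1 array was removed.

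**Figure D1:**
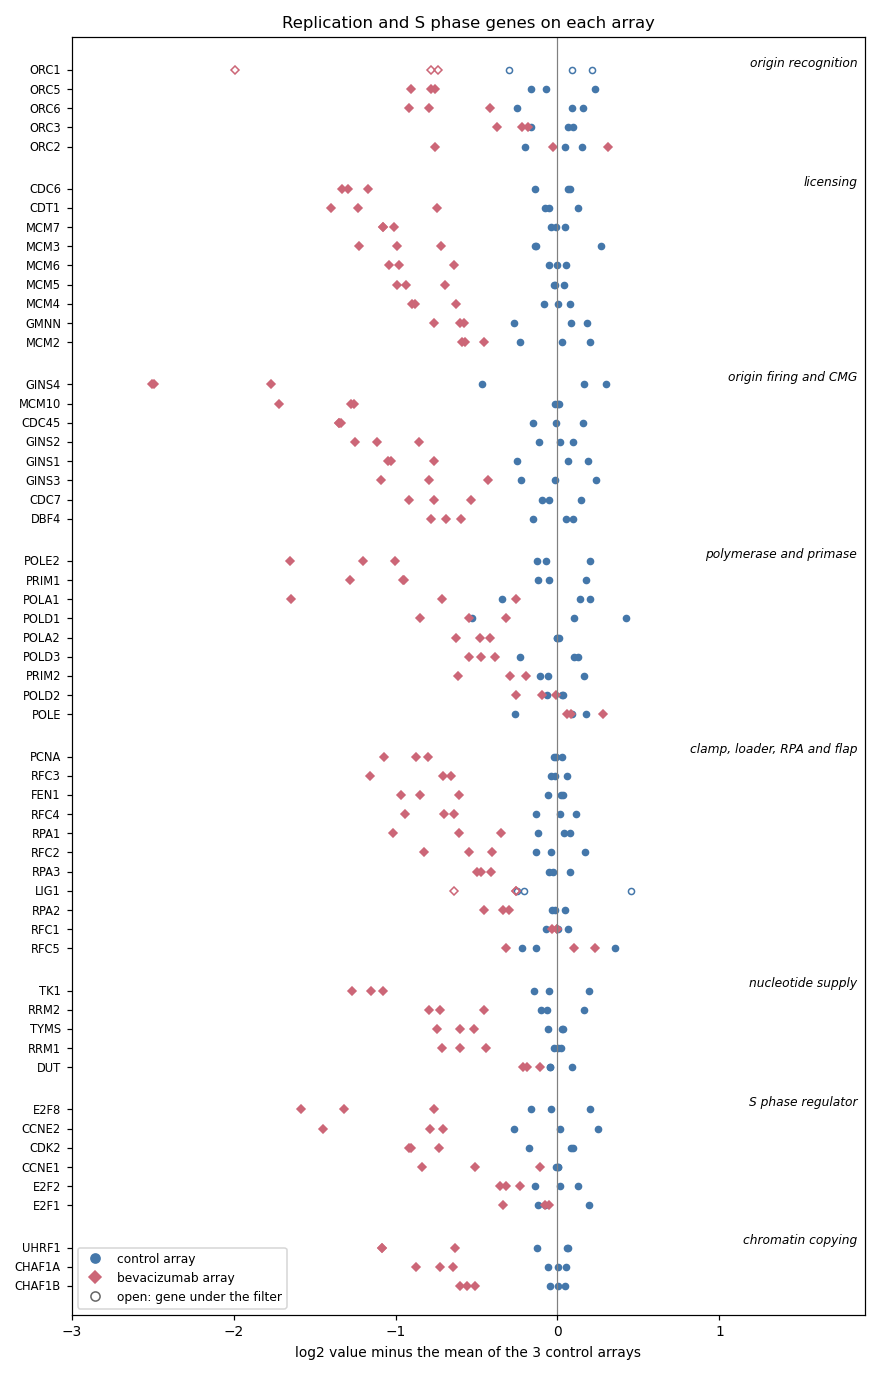
Each row is a gene, grouped by role. The horizontal axis gives each array's log2 value minus the mean of the 3 control arrays, with circles for control arrays, diamonds for bevacizumab arrays and open symbols for the genes under the filter. The diamonds lie left of the circles in most rows, and the exceptions gather among polymerase subunits, RFC1, RFC5, ORC2 and E2F1.

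RNA quality was read from housekeeping genes. For ACTB the 3' minus 5' log2 signal was 1.14, 1.33 and 1.66 in controls and 1.94, 1.86 and 1.64 after bevacizumab, so the groups overlapped (exact permutation p = 0.2, two-sided, smallest possible 0.1). For GAPDH the control arrays averaged -0.12 ± 0.02 and the treated ones -0.02 ± 0.03 (SD, n = 3 in either group). Every treated array lay above every control for GAPDH, so its exact permutation p = 0.1 is the smallest possible. With the ACTB value as a covariate the median of the 54 genes was -0.81, as large as without it. In that limma fit 0 members passed at an adjusted p under 0.05, as did 11 lower genes of all (0.107%), and 40 members against 15.9% of all genes were lower at an unadjusted p under 0.05. Markers of the line and of stromal cell types, all read on probe sets of human genes, gave mixed values. How far these probe sets detect RNA of the mouse host was not tested. VIM, CD44 and FN1 lay between 13.95 and 15.17 in both group means, the neural stem cell marker NES fell by 1.18 (limma adjusted p = 0.00725), the stem cell marker SOX2, dim and not tested, read 2.84, 3.58 and 2.82 in controls and 4.30, 3.76 and 3.61 after bevacizumab, and the glial markers GFAP, OLIG2 and S100B were under 4 on every array. Of 8 endothelial markers 6 were under 4 on every array (CDH5, KDR, TIE1, VWF, CLDN5 and ESAM), neither of the 2 tested (PECAM1 and TEK) passed, and the summed linear level was 158 to 171 in controls and 163 to 195 after bevacizumab. Of 6 macrophage markers measured 5 were under 4 throughout (PTPRC, CD14, CSF1R, ITGAM and CD163), and the 1 tested, AIF1, did not pass (sums 61.9 to 69.4 and 59.7 to 61.8). Of 6 mural markers 2, RGS5 and ACTA2, fell (sums 8545 to 10819 and 3569 to 4207). ACTA2, the brightest of them (12.76 in controls), leads that sum. PDGFRB, CSPG4 and MCAM differed by 0.30, 0.16 and 0.42 and NOTCH3 by -0.51, and none passed. Of 7 fibroblast markers 1, COL3A1, fell (sums 97114 to 109996 and 79649 to 96624). COL1A2, DCN, PDGFRA and THY1 differed by 0.17, 0.26, 0.17 and 0.34, COL1A1 by -0.03 and LUM by -0.62, and none passed. Whether human or mouse cells gave the mural and fibroblast marker signal was not tested, nor was its part in the replication results.

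Because E2F factors are the best known regulators of this set, its promoters were read for E2F letters. RefSeq promoters (GRCh38.p14, 250 bases before to 50 after a gene's start) were matched for 47 of the 56 genes. The letters searched were TTTCCCGC, TTTGGCGC, TTTCGCGC and TTTGCCGC on both strands, where hits may overlap. They occurred in 25 of 63 member promoters (39.7%) and in 3.31% of all 35116 promoters. By gene, that is 24 of 47 members, against 588 of 8507 tested genes with a promoter (6.91%) and 97 of 859 that fell (11.3%). All 7 licensing genes with a promoter had a match (CDC6, CDT1, GMNN, MCM2, MCM3, MCM6 and MCM7), as did 4 of 7 firing genes, 4 of 8 polymerase genes and 1 of 5 origin recognition genes. A match was present in 17 of 31 members that fell (54.8%) and in 6 of 14 that were tested and did not pass (42.9%). CCAAT, the box bound by NF-Y, was in 27 of 47 members and 43.9% of tested genes. TTTGAA, a form of the CHR element found in genes of later cell cycle phases, was in 3 of 47 members and 14.6% of tested genes. A match of letters is a description and not evidence of binding.

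The bases just before the start are shown for 6 genes that fell and, as a contrast, for E2F1 and POLE, which did not, with the searched letters in capitals and each sequence on its gene's own strand. They were picked for their matches, after their values were known.
MCM6, chr2:135876444-135876603, minus strand: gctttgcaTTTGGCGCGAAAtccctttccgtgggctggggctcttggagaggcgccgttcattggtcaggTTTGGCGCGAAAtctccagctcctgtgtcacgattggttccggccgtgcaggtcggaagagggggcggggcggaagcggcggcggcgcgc
MCM7, chr7:100101398-100101497, minus strand: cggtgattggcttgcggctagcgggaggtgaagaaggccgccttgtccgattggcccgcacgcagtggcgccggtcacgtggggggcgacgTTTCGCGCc
PCNA, chr20:5126623-5126722, minus strand: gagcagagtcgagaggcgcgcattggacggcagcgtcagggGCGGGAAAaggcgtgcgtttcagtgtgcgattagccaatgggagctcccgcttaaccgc
CDT1, chr16:88803689-88803788, plus strand: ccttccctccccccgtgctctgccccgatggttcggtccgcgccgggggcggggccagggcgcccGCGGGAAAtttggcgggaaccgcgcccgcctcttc
GINS2, chr16:85688955-85689054, minus strand: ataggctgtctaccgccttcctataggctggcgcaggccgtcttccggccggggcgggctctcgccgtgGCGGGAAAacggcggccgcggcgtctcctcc
POLA2, chr11:65261862-65261961, plus strand: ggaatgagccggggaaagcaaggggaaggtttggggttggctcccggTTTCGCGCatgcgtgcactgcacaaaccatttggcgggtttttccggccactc
E2F1, chr20:33686386-33686485, minus strand: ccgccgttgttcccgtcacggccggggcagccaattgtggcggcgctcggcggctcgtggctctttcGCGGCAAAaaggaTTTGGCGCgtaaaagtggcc
POLE, chr12:132687343-132687442, minus strand: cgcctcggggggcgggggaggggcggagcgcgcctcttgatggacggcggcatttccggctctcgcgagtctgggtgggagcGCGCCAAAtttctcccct
In MCM6 the letters form overlapping pairs that begin 152 and 148, and 90 and 86, bases before the start. In E2F1 they begin at 33 and 20 bases, in MCM7 at 9 and in PCNA at 59.

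The licensing genes fell without exception, 9 of 9, with a median log2 difference of -0.89. MCM7, a subunit of the helicase ring, read 10.23, 10.18 and 10.14 in controls and 9.11, 9.18 and 9.11 after bevacizumab. The 2 groups were far apart beside their spread (10.19 ± 0.05 and 9.13 ± 0.04, SD, n = 3 each), and the fall was 2.08-fold (log2 difference -1.05, SE 0.08, limma adjusted p = 0.00206). CDC6, the ATPase that loads the ring, read 8.31, 8.11 and 8.32 in controls and 7.08, 6.91 and 6.95 after treatment, a 2.40-fold fall (log2 difference -1.26, SE 0.10, adjusted p = 0.00221). MCM5 read 9.37, 9.36 and 9.42 against 8.69, 8.44 and 8.39, with no overlap (log2 difference -0.87, SE 0.10, adjusted p = 0.00616).

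The other ring subunits fell by similar amounts. The log2 difference was -0.98 for MCM3, -0.89 for MCM6, -0.80 for MCM4 and -0.54 for MCM2, the smallest of the ring (adjusted p = 0.0373). The loader CDT1 fell 2.18-fold (log2 difference -1.12, adjusted p = 0.0128), and geminin (GMNN), the protein that blocks CDT1, fell with it (-0.65, adjusted p = 0.0280). On the probe sets of the gene fit the transcripts of the activator and of the inhibitor were thus both lower. The other tested CDT1 probe set, a dimmer one, overlapped between the groups and did not pass (-0.59, limma adjusted p = 0.194 over probe sets). MCM4, MCM5, MCM6, MCM7 and CDC6 passed whichever array was removed, whereas MCM2 and GMNN passed in 1 such fit of 6. Without control 2, 5 licensing genes passed.

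Origin recognition genes were less uniform: 2 of 4 tested fell, with a median log2 difference of -0.48. ORC5 read 9.17, 9.48 and 9.09 in controls and 8.46, 8.49 and 8.35 after bevacizumab, without overlap (log2 difference -0.81, SE 0.13, limma adjusted p = 0.0114). ORC6 read 9.50, 9.92 and 9.85 against 9.34, 8.84 and 8.96 (-0.71, SE 0.17, adjusted p = 0.0389), and bevacizumab 1 came near control 1. ORC1, the subunit whose level follows the cell cycle, was under the filter. Its controls read 4.65, 4.25 and 4.77 and its bevacizumab arrays 3.82, 3.78 and 2.57, all under 4, a level at least 1.47-fold lower that was not tested. The difference was -0.26 for ORC3 (adjusted p = 0.148) and -0.16 for ORC2 (adjusted p = 0.710), whose groups overlapped. ORC4, outside the 56 and added after its value was seen, differed by -0.04 (adjusted p = 0.851). ORC5 passed in all 6 fits without an array, and ORC6 only without bevacizumab 1.

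All 8 genes of origin firing and the CDC45-MCM-GINS helicase fell, with the lowest median of the role groups, -1.01. CDC45 read 6.64, 6.50 and 6.81 in controls and 5.30, 5.30 and 5.31 after bevacizumab, so the treated arrays were almost equal. This is a 2.54-fold fall (log2 difference -1.34, SE 0.10, limma adjusted p = 0.00207). MCM10, which helps the helicase start, was as tight in the controls (7.73, 7.73 and 7.71) and read 6.47, 6.45 and 6.00 after treatment, 2.67-fold lower (-1.42, SE 0.14, adjusted p = 0.00424). Its other tested probe sets gave -0.95 and -0.66 and did not pass (limma adjusted p = 0.0659 and 0.096 over probe sets).

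The GINS complex has 4 subunits, and all fell. GINS2 went from 9.40, 9.52 and 9.61 to 8.65, 8.26 and 8.39 (log2 difference -1.07, SE 0.13, limma adjusted p = 0.00609). GINS4, given in full after its value was seen, read 6.61, 6.47 and 5.84 in controls and 4.53, 3.81 and 3.80 after bevacizumab. It fell (log2 difference -2.26, SE 0.28, adjusted p = 0.00684), but bevacizumab 2 and 3 were under the filter level of 4, and with values under 4 set to 4 the difference was -2.13. Only 1 of its 4 probe sets was bright enough to test. GINS1 differed by -0.95 (adjusted p = 0.0115) and GINS3 by -0.77 (adjusted p = 0.0456). The kinase pair that fires origins fell as well, the catalytic CDC7 by -0.74 (adjusted p = 0.0158) and its activator DBF4 by -0.69 (adjusted p = 0.0107). GINS3 passed in 1 of 6 fits without an array and CDC7 in 2, and without control 1 or 2 there were 5 firing genes past the threshold. With the mean of all probe sets per gene there were 6.

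**Figure D2:**
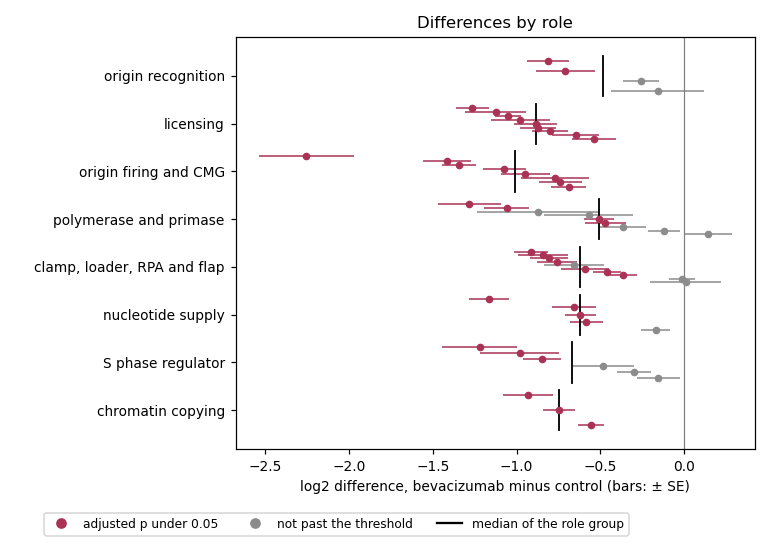
The horizontal axis is the log2 difference (bevacizumab minus control) of each tested gene with its SE as a bar, grouped by role, dark red where the adjusted p was under 0.05 and grey where it was not. Black lines are the medians, from -1.01 for origin firing to -0.48 for origin recognition, and every licensing, firing and chromatin gene is dark red.

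Within the polymerase and primase complexes some subunits passed the threshold and others did not. Of 9 tested, 4 fell and 5 did not pass, with a median of -0.51. PRIM1, the catalytic primase subunit, read 8.70, 8.77 and 8.999 in controls and 7.88, 7.55 and 7.87 after bevacizumab, a 2.09-fold fall (log2 difference -1.06, SE 0.14, limma adjusted p = 0.00714). Its partner PRIM2, the regulatory subunit, differed by -0.37 (adjusted p = 0.122). POLE2, an accessory subunit of the leading strand polymerase, read 8.44, 8.49 and 8.76 against 7.56, 6.92 and 7.36, 2.43-fold lower (-1.28, SE 0.19, adjusted p = 0.0101).

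The catalytic subunits of the 3 polymerases, unlike that of primase, did not pass. POLE, that of the leading strand, read 5.44, 5.09 and 5.52 in controls and 5.41, 5.43 and 5.63 after bevacizumab, with overlap and a positive log2 difference of 0.14 (SE 0.14, limma adjusted p = 0.509). POLD1, that of the lagging strand, differed by -0.57 (SE 0.27, adjusted p = 0.180) and turned to 0.08 with the ACTB covariate. POLA1, which extends the primer, differed by -0.87 with an SE of 0.36 (adjusted p = 0.144), and its bevacizumab arrays were widely spread at 6.58, 7.04 and 5.65. POLA2, the partner of POLA1, was by contrast tight, at 8.43, 8.41 and 8.41 against 7.94, 7.79 and 8.00 (-0.51, SE 0.09, adjusted p = 0.0153). Of the small subunits of polymerase delta, POLD3 fell by 0.47 (adjusted p = 0.0464) and POLD2 differed by -0.12 (adjusted p = 0.408). That accessory and catalytic subunits differ in response was not tested. Without control 1 or 3, or with the mean of all probe sets per gene, 2 polymerase genes passed, and POLD3 passed in 1 of the 6 fits without an array.

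At the fork, 7 of 10 tested clamp, loader, single-strand binding and flap genes fell, with a median of -0.62. PCNA, the sliding clamp, read 12.67, 12.67 and 12.71 in controls and 11.89, 11.61 and 11.81 after bevacizumab, 1.89-fold lower (log2 difference -0.91, SE 0.10, limma adjusted p = 0.00482). FEN1, the nuclease that trims Okazaki fragment flaps, read 10.82, 10.81 and 10.73 against 10.18, 9.82 and 9.94 (-0.81, SE 0.11, adjusted p = 0.0092). The ligase LIG1, which seals the fragments, lay between 2.33 and 3.42 on its 1 probe set and was not tested.

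The clamp loader has a large subunit and 4 small ones. RFC4 fell from 10.12, 10.27 and 10.37 to 9.62, 9.32 and 9.56 (log2 difference -0.76, SE 0.12, limma adjusted p = 0.0118), RFC3 by 0.84 (adjusted p = 0.0162) and RFC2 by 0.59 (adjusted p = 0.0370). RFC1, the large subunit, differed by only -0.01 (SE 0.08, adjusted p = 0.921), with arrays between 8.85 and 8.98 in both groups. RFC5 also gave no difference on its brightest probe set (0.01, SE 0.21, adjusted p = 0.985), but its other probe sets, described below, fell. In the single-strand binding trimer, RPA3 fell by 0.46 (adjusted p = 0.0165) and RPA2 by 0.36 (adjusted p = 0.0329), and RPA1 had a larger difference of -0.66 that missed the threshold (adjusted p = 0.0518). Without control 1, 2 or 3 there were 3, 2 and 3 genes of this group past the threshold; PCNA and FEN1 passed in all 6 fits without an array.

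Of the 5 nucleotide supply genes 4 fell, with a median of -0.62. TK1, the salvage enzyme for thymidine, read 9.42, 9.33 and 9.67 in controls and 8.32, 8.21 and 8.40 after bevacizumab, a 2.24-fold fall (log2 difference -1.16, SE 0.12, limma adjusted p = 0.00449). TYMS, the enzyme of new thymidylate synthesis and target of fluorouracil, read 12.58, 12.57 and 12.48 against 11.80, 11.94 and 12.03 (-0.62, SE 0.09, adjusted p = 0.0107). Each is 1 transcript of its pathway, and other genes of thymidine nucleotide synthesis follow with the wider list. Ribonucleotide reductase, which makes deoxynucleotides, fell in its large subunit RRM1 by 0.58 (adjusted p = 0.0138) and in its small subunit RRM2 by 0.66 (adjusted p = 0.0218). The other RRM2 probe set, almost as bright, gave -0.42 and did not pass (limma adjusted p = 0.118 over probe sets). RRM2 passed in 1 of the 6 fits without an array. DUT, which keeps uracil out of DNA, read 13.65 in controls and 13.48 after bevacizumab on average and did not pass (-0.17, adjusted p = 0.208). Without control 1 or 2, TK1 alone of these passed.

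Set side by side, the medians were -0.89 for licensing, -1.01 for firing, -0.62 for the clamp group, -0.62 for nucleotide supply and -0.51 for polymerases. The share that fell was 9 of 9, 8 of 8, 7 of 10, 4 of 5 and 4 of 9. The difference between role groups was not tested.

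S phase regulators divided evenly, with 3 of 6 lower and a median of -0.67. CDK2, the kinase of S phase entry, read 8.73, 8.74 and 8.47 in controls and 7.92, 7.75 and 7.73 after bevacizumab (log2 difference -0.85, SE 0.11, limma adjusted p = 0.0078). E2F8, a repressor that is itself a target of E2F, read 9.66, 9.54 and 9.90 against 8.94, 8.38 and 8.12, 2.33-fold lower (-1.22, SE 0.23, adjusted p = 0.0181). CCNE2, a cyclin partner of CDK2, read 9.61, 9.32 and 9.84 against 8.88, 8.14 and 8.80 (-0.98, SE 0.24, adjusted p = 0.0366).

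The activating E2F members did not pass the threshold. E2F1 read 7.49, 7.76 and 7.45 in controls and 7.23, 7.49 and 7.51 after bevacizumab, with overlap (log2 difference -0.15, SE 0.13, limma adjusted p = 0.428). E2F2 differed by -0.30 (limma adjusted p = 0.0856), with every bevacizumab array under every control. CCNE1 was near constant in controls at 6.17, 6.19 and 6.18 and spread over 5.35, 5.67 and 6.07 after treatment (-0.48, adjusted p = 0.117). Thus cyclin E2 passed and cyclin E1 did not, a contrast that was not tested. Of this group 1 gene passed without any 1 of the controls or bevacizumab 2; CDK2 passed in all 6 fits without an array, CCNE2 in 1.

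The 3 genes that rebuild chromatin behind the fork all fell, with a median of -0.75. CHAF1A, the large subunit of the histone chaperone CAF-1, read 8.41, 8.46 and 8.35 in controls and 7.76, 7.68 and 7.53 after bevacizumab (log2 difference -0.75, SE 0.09, limma adjusted p = 0.00700). CHAF1B, its partner, read 7.28, 7.23 and 7.32 against 6.77, 6.67 and 6.72 (-0.56, SE 0.08, limma adjusted p = 0.00924). On these probe sets the 2 groups of each gene lay well apart. CHAF1A passed on only 1 of its 3 tested probe sets, and the others gave -0.12 and -0.16. With the mean of all probe sets per gene, 2 of the 3 chromatin genes passed. UHRF1, which brings the maintenance DNA methyltransferase to new DNA, fell by 0.93 (adjusted p = 0.0128).

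Probe sets of 1 gene did not always move by the same amount. Fitted over 18475 probe sets, 55 of the 86 tested member probe sets fell, against 7.96% of all, and none rose, against 7.43%; the other 20 had means between 2.23 and 3.97 and were not tested. Without control 1 or 2 the count of 55 was 23 and 29. Of 26 genes with 2 or more tested probe sets, 24 had only negative differences, and in 12 every one fell. The shares of all genes for these counts were not taken, so they are only a description. GINS3 and POLD3, near the threshold in the gene fit, missed it here. RFC5 was the widest case, chosen after its values were seen. Its brightest probe set (mean 11.33) gave 0.01, while another read 9.97, 10.10 and 10.25 in controls and 9.36, 9.10 and 9.02 after bevacizumab (log2 difference -0.94, limma adjusted p = 0.0104 over probe sets) and the most dim 7.81, 7.92 and 8.01 against 6.64, 6.31 and 6.02 (-1.59, adjusted p = 0.00654). So RFC5 fell on 2 of 3 probe sets, and with the mean of its probe sets in the gene fit it passed (-0.84, adjusted p = 0.0107). 

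Other genes showed the same order. CCNE2 differed by -0.98 on its brighter probe set and -2.27 on the other, CDK2 by -0.85 and -1.74, RRM1 by -0.58 and -1.15, and TYMS by -0.62 and -1.15. DUT gave -0.17 on its brightest and -0.86 on its most dim tested probe set, and the latter passed (adjusted p = 0.0228 over probe sets). MCM10, CHAF1A, CDT1 and RRM2 were among those that went the other way. Their brightest probe sets gave -1.42, -0.75, -1.12 and -0.66, and their most dim gave -0.66, -0.16, -0.59 and -0.42. None of these most dim probe sets passed. Over the 26 genes the most dim probe set had the lower difference in 15. Among genes whose brightest probe set fell, that held in 11 of 18 members and in 144 of 404 genes overall (35.6%).

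**Figure D3:**
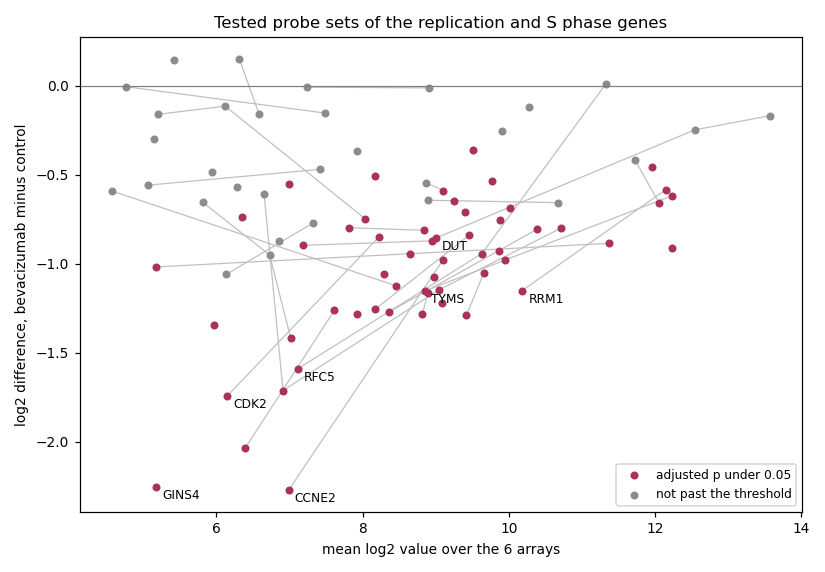
Each point is a tested member probe set, with its mean log2 value over the 6 arrays on the horizontal axis and its log2 difference (bevacizumab minus control) on the vertical axis. Grey lines join probe sets of 1 gene, dark red marks an adjusted p under 0.05, and RFC5 and CCNE2 are among the genes whose line runs steeply from a bright to a dim probe set.

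Related genes outside the 56 were read from lists. Of 20 tested replisome and initiation genes 9 were lower and 0 higher, and the median was -0.47. RNASEH2B, a subunit of the enzyme that removes ribonucleotides from DNA, fell 2.17-fold (log2 difference -1.12, SE 0.14, limma adjusted p = 0.00718), and the fork protection gene TIPIN fell by 0.86 (adjusted p = 0.00834). Without control 1, 2 or 3 there were 4, 3 and 4. Among 10 other chromatin copying genes 7 were lower and 0 higher (median -0.66). The histone chaperones ASF1A and NASP fell by 1.21 (adjusted p = 0.00401) and 0.98 (adjusted p = 0.0083), and without control 1, 2 or 3 there were 3, 2 and 4.

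Nucleotide synthesis beyond the 5 members was mixed, with 7 of 18 lower, none higher, 5 positive differences and a median of -0.24. CTPS1, which makes CTP, fell by 0.71 (limma adjusted p = 0.00682) and the nucleoside diphosphate kinase NME1 by 0.62 (adjusted p = 0.00727). Without control 1, 2 or 3, or bevacizumab 2, there were 4, 2, 3 and 3 lower. Every bevacizumab array lay above every control in 1941 of all 10233 tested genes. Among the positive differences here, named after they were seen, that held for 3 of the 18 genes. These were TK2, the mitochondrial thymidine kinase, at 0.54 (adjusted p = 0.0613), and the purine synthesis genes PPAT at 0.40 (adjusted p = 0.106) and PAICS at 0.33 (adjusted p = 0.0577). The purine synthesis genes GART, ADSL and ATIC, also named after they were seen, fell by 0.56, 0.60 and 0.54 (limma adjusted p = 0.0279, 0.0297 and 0.0108). GMPS, IMPDH1 and IMPDH2 did not pass. The salvage kinase DCK differed by 0.19 (adjusted p = 0.357). DTYMK, the thymidylate kinase, also named after its value was seen, fell by 0.53 (limma adjusted p = 0.0248). With the filter at 6, without control 3 or without bevacizumab 1, 1 gene of the list was higher. Of 8 checkpoint genes only CHEK1, the effector kinase of the replication checkpoint, fell (-0.90, SE 0.10, adjusted p = 0.00559). The next by p, ETAA1, differed by -0.35 (adjusted p = 0.105).

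Of 11 other E2F and pocket protein genes only TFDP1, the dimer partner of E2F proteins, fell (-0.73, SE 0.12, limma adjusted p = 0.0128). TFDP2 had a larger difference of -1.68 but an SE of 0.51 and did not pass (adjusted p = 0.0683). The list median was -0.29, and without control 1 or 2 the count was 0, without control 3 or bevacizumab 1 it was 2. Of the CDK inhibitor genes 3 were tested and none passed (limma, 1 at an unadjusted p under 0.05), but with the mean of all probe sets per gene 1 was higher. CDKN1B, encoding p27, differed by 0.35 (adjusted p = 0.0531) and CDKN1A, encoding p21, by -0.45 (adjusted p = 0.165). Of 24 mitosis genes, for comparison, 20 fell with a median of -0.71, close to the -0.74 of the replication genes; the difference between the lists was not tested. AURKB, a kinase of chromosome segregation, fell by 1.11 (adjusted p = 0.00225) and CCNB1, cyclin B1, by 0.96 (adjusted p = 0.00714). Without control 1, 2 or 3, or bevacizumab 2, there were 5, 3, 6 and 12.

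**Figure D4:**
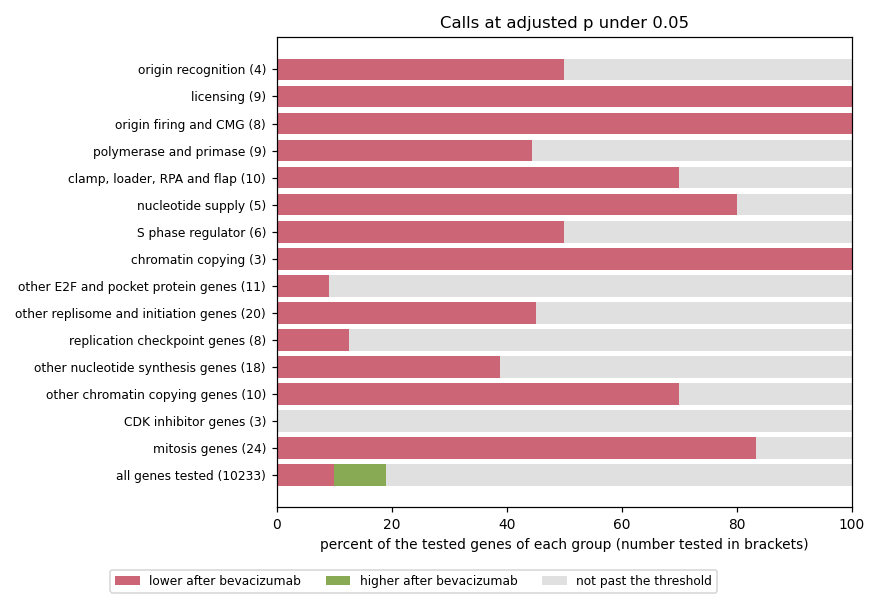
Bars give the percent of tested genes in each group that fell (red), rose (green) or did not pass (grey) at an adjusted p under 0.05, with the number tested in brackets. Licensing, firing and chromatin copying members reach 100 percent lower, other E2F and checkpoint genes stay near the 9.97% of all tested genes, and green appears only in the bar of all genes.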

How the data were processed

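Expression was measured on 6 one-colour Affymetrix arrays, 3 control and 3 bevacizumab. The deposited log2 values were made by the authors with GCOS 1.1.1.052 and GCRMA, per the submitters' processing notes. The log2 scale is read off their range, which ends at 15.99. The small number of arrays limits the precision. On each array 33.3% to 34.3% of probe sets held the table's lowest value, so falls of dim genes are cut short. Symbols came from the platform annotation, updated by gene identifier; 41097 probe sets had 1 symbol. Each of 19775 genes was represented by its brightest probe set on average, and 10233 with a mean of at least 4 were tested. limma 3.58.1, run in R 4.3.3, compared the groups (lmFit, eBayes, no covariate, two-sided, Benjamini-Hochberg over all genes), and likewise over probe sets. No batch is named in the labels. The procedure was checked on simulated data.

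The members, role groups, lists and rule for naming genes were chosen with earlier results of these data known. The rule names every member, with values on every array for the 3 smallest p of a role group (2 where it has 5 or fewer members, which includes chromatin copying), and the 2 smallest p of each other list. Array values of ORC1, GINS4, POLE, POLA1, E2F1, CCNE1, RFC1 and RFC5 were added after they were seen. Other settings tried were no filter, a filter at 6, the mean of all probe sets of a gene, quantile normalization, values under 4 set to 4, the replicate block, the ACTB covariate and leaving out each array.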

Additional observations from a re-analysis of the deposited data

How the results depend on the processing

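The median log2 difference of the replication genes stayed between -0.68 and -0.82 in every alternative run, and no member rose in any. Counts of calls moved more. Without the filter on dim genes, 598 genes in all passed, 21 replication genes and 24 of their probe sets were lower, and by role this was 0 for origin recognition, 5 for licensing, 4 for firing, 2 for polymerases, 4 for the clamp group and 1 for S phase regulators. With the replicate block, 904 genes in all passed, 26 replication genes and 35 probe sets were lower, with 1 for origin recognition, 2 for polymerases, 3 for the clamp group and 1 for nucleotide supply; same-numbered arrays did not deviate together (correlations of -0.05, -0.01 and -0.05 over tested genes), so the numbers were not taken to pair them, and no array correlated best with its own number. With the ACTB covariate, 24 genes in all passed and 0 replication genes, 0 probe sets and 0 of every role group. With the mean of all probe sets, 2 polymerase genes and 6 firing genes were lower.

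Leaving out each array gave 558 to 2074 genes in all, 21 to 37 replication genes and 23 to 53 probe sets. By role the ranges were 1 to 2 for origin recognition, 5 to 8 for licensing, 5 to 8 for firing, 2 to 3 for polymerases, 2 to 8 for the clamp group, 1 to 4 for nucleotide supply, 1 to 3 for S phase regulators and 2 to 3 for chromatin copying.

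Single genes changed sign only where no call stood in the main fit, though RFC5 then passed with the mean of its probe sets. POLD1 was 0.0808 with the ACTB covariate. With 1 array removed, RFC1 ranged from -0.0488 to 0.0207 and was positive without control 3, and ORC2 ranged from -0.3915 to 0.1421 and was positive without bevacizumab 3. RFC5 was -0.84 with the mean of its probe sets, -0.0045 after quantile normalization, -0.22 with the ACTB covariate and from -0.1051 to 0.185 with 1 array removed, negative without control 1, control 2, bevacizumab 1 or bevacizumab 3; the cause was not tested. Of all single-gene values under an alternative, 527 kept direction and call, 153 lost the call, 5 gained one and 10 changed sign.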
